A study of Homo sapiens with 12 samples.

Results

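Antisense noncoding RNAs are described here as they stood in K562 cells given nilotinib, hemin or both. The genes were chosen by the biotype antisense in the count table and a mean raw count of at least 200 over the 12 libraries, which left 208 of the 5583 antisense genes and of the 58735 genes in all. GAS5, BGLT3 and genes named SNHG were left out by name, which removed 3 of 211 genes at that level. The mean level chose the genes, so levels are given as a description. A mean of 200 was reached by 181 in mock DMSO, 107 in hemin DMSO, 182 in mock nilotinib and 191 in hemin nilotinib. Some genes described below reached it only in the groups where they were high. In the nilotinib groups only, these include AL031848.1, AL137789.2, AC022098.2, AC003102.1 and BX293535.1. AC121761.1 and AL360270.1 did so in hemin DMSO only, AP001972.4 in the hemin groups only, and AL034397.3 and TLR8-AS1 in mock DMSO only. For AL034397.2, AL109615.3 and AC007388.1 it was the DMSO groups only. The choice used these same values, so the changes of all such genes are given as a description too. Just outside the limit lay NRSN2-AS1, with a mean of 199.6 counts, and TMCC1-AS1, with 198.8, and just inside it lay MZF1-AS1, with 200.6, and BX293535.1, with 202.9. MZF1-AS1 had 153 to 238 counts in mock DMSO and 177 to 432 in hemin nilotinib.

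K562 is a human erythroleukemia line whose growth depends on the kinase BCR-ABL1, which nilotinib inhibits, and hemin makes these cells produce hemoglobin. The RNA of 4 groups of 3 biological replicates was sequenced: mock DMSO (vehicle, no hemin), hemin DMSO (vehicle, then 50 μM hemin for 24 h), mock nilotinib (0.1 μM nilotinib, no hemin) and hemin nilotinib (0.1 μM nilotinib before 50 μM hemin for 24 h). The comparisons ask how nilotinib acts on cells with and without hemin, and how hemin acts on cells with and without nilotinib. The mock libraries are labelled as having no hemin and the hemin libraries as having it for 24 h, so hemin and any difference in time in culture cannot be told apart.

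The libraries held 33457078 to 50506990 counts, which limits the precision of the lowest genes. The labelled cell line was checked against markers, and all 12 erythroid markers were above 1 CPM (counts scaled to library size) in every group, with a summed level of 960 to 1642 CPM in the DMSO libraries and 12845 to 20396 CPM in the nilotinib libraries. Of the 8 myeloid markers, 4 had a mean over 1 CPM, and MPO and ELANE were at or near 0. The 8 summed to 88.2 to 118 CPM in the DMSO libraries and to 10.4 to 21.2 CPM in the nilotinib libraries. A mean over 1 CPM was also found for 4 of 8 megakaryocyte and 3 of 6 lymphoid markers. Their sums ran from 15.4 to 75.1 and from 33.1 to 114 CPM over the 12 libraries. The replicates of hemin nilotinib stood furthest apart: between replicates 1 and 3 the counts differed by a chi-square of 252 per degree of freedom, against 13.7 to 119 within the other groups. In bulk RNA, fewer cells that express a gene and less RNA per cell cannot be told apart.

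Antisense RNAs are read from the strand opposite to another gene. Some start beside the promoter of a coding gene and run away from it (head to head), some run into its end (tail to tail), some lie wholly inside it and some span it. Single members of the class are known to silence or sustain a neighbouring gene, to bind microRNAs, or to carry microRNAs and small nucleolar RNAs in their exons and introns, while for most of them no role is known.

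Of the 208 antisense RNAs, 63 lay head to head with a coding gene of the opposite strand, 49 inside one, 46 tail to tail and 20 across a whole coding gene, and 30 overlapped no coding gene of the opposite strand. Their mean level ran from 0.151 to 67.5 CPM per kb of exon with a median of 3.92 CPM per kb, and the coding genes they overlap had a median of 6.28 CPM per kb. In 81 of the 178 overlapping pairs, the antisense RNA was the higher of the pair per kb. Whether the counting used strand is not given in the sources used here, so reads of an antisense RNA and of the gene opposite to it cannot be told apart where their exons overlap. The share of antisense exon bases that also belong to any other gene was 0% in 54 of the 208, under 20% in 102 and 20% or more in 52.

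The summed level of the antisense RNAs was highest with nilotinib and lowest with hemin alone. It was 2942 to 3124 CPM in mock DMSO, 2154 to 2673 in hemin DMSO, 3732 to 3939 in mock nilotinib, and 3597, 4376 and 5367 in replicates 1, 2 and 3 of hemin nilotinib. No nilotinib library overlapped a DMSO library. Hemin DMSO had the lowest mean for 119 of the 208 antisense RNAs and hemin nilotinib the highest for 96, and the commonest order of the groups, in 48 of the 208, was hemin nilotinib, mock nilotinib, mock DMSO and hemin DMSO. Other values moved with the groups. The mitochondrial share of counts was 1.45 to 2.88% in hemin DMSO, lowest in replicate 2, which also had the lowest antisense sum, and 5.2 to 8.83% in the other groups. The sum of 894 sense-intronic RNAs was 394 to 461 CPM in mock DMSO, 310 to 426 in hemin DMSO and 456 to 510 in mock nilotinib. Within hemin nilotinib, the sum of the sense-intronic RNAs (512, 574 and 735 CPM in replicates 1 to 3) and the imprinted KCNQ1OT1 (94.8, 317 and 597 CPM) differed between the replicates in the same order as the sum of the antisense RNAs. Their part in the class values was not tested, and without KCNQ1OT1 the sums of hemin nilotinib were 3502, 4059 and 4770 CPM.

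**Figure D1:**
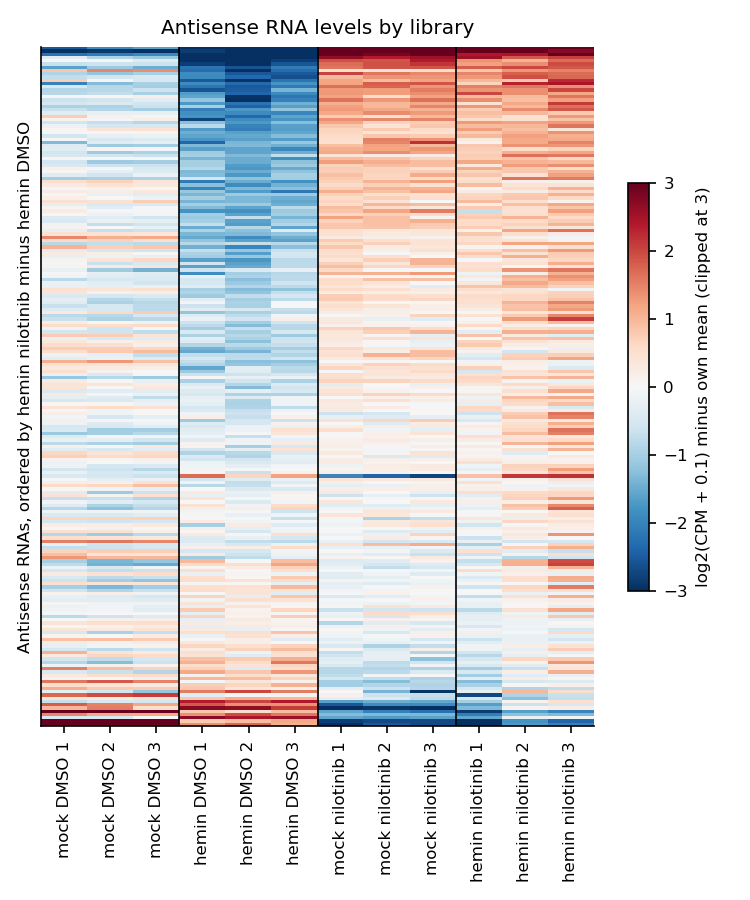
Levels of the 208 antisense RNAs (rows, ordered by hemin nilotinib minus hemin DMSO) in the 12 libraries (columns), as log2(CPM + 0.1) minus each gene's own mean, with colours clipped at 3. Most rows are blue in the 3 hemin DMSO libraries and red in the 6 nilotinib libraries, and a smaller set at the bottom is high in DMSO and low in nilotinib.

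With hemin present, nilotinib raised most of the antisense RNAs. Against hemin DMSO, 134 of the 208 were higher in hemin nilotinib and 21 lower at an adjusted p under 0.05 (edgeR's quasi-likelihood test, Benjamini-Hochberg over all 20821 genes tested; all 208 passed the filter on low counts), and 106 of the 134 were raised by at least 2-fold. The share raised by at least 2-fold was not computed over all genes. The 155 called are 74.5% of the antisense RNAs, beside 64.2% of all genes tested and 69.7% of the 10977 genes of any biotype with a mean of at least 200 counts. The direction differed more than the number: 64.4% of the antisense RNAs were higher and 10.1% lower, beside 34.8% and 34.9% of the genes at that level and 32.4% and 31.8% of all genes tested. On the log2 scale the median change was 1.02 for the antisense RNAs and -0.02 for the genes at that level. In 141 of the 208 the 3 libraries of hemin nilotinib did not overlap those of hemin DMSO, beside 63.5% of all genes tested.

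Without hemin, nilotinib also raised more antisense RNAs than it lowered. In mock nilotinib against mock DMSO, 94 were higher and 41 lower (64.9% called, beside 42.5% of all genes tested and 50.7% of genes with a mean of at least 200 counts). Of the antisense RNAs 45.2% were higher and 19.7% lower, beside 20.7% and 21.8% of all genes tested and 21.6% and 29.1% of those at that level. Their median was 0.49 on the log2 scale, beside -0.08 for the genes at that level. For the 54 antisense RNAs that share no exon base with another gene, the median was 0.03. The same 82 antisense RNAs were higher and the same 17 lower with nilotinib in both settings, 45 were called higher only with hemin, and 7 were higher with hemin and lower without it. Shares over all genes were not computed for these patterns, so they are counts only and not a trait of the class. The effect of nilotinib itself differed between the settings for 94 of the 208 by the interaction term, with a positive term (hemin minus no hemin) for 88 and a negative one for 6 (45.2%, beside 30.1% of all genes tested and 39.0% of those with a mean of at least 200 counts). By direction these were 42.3% and 2.88%, beside 17.1% and 13.0% of all genes tested and 23.8% and 15.1% of those at that level. The split became 101 positive and 1 negative with library totals alone. The 6 negative terms became 13 without hemin nilotinib replicate 3, 2 without mock DMSO replicate 2 or 3 or hemin DMSO replicate 3, and 3 without mock DMSO replicate 1, mock nilotinib replicate 2 or 3 or hemin nilotinib replicate 2.

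With hemin alone more antisense RNAs fell than rose, and few passed the test for hemin after nilotinib. In hemin DMSO against mock DMSO, 34 were higher and 98 lower (63.5% called, beside 53.6% of all genes tested and 61.6% of those with a mean of at least 200 counts). Of the antisense RNAs 16.3% were higher and 47.1% lower, beside 25.7% and 27.8% of all genes tested and 25.3% and 36.2% of those at that level. Their median was -0.52 on the log2 scale, beside -0.13 for the genes at that level. In hemin nilotinib against mock nilotinib, 19 were higher and 2 lower (10.1%, beside 5.80% of all genes tested and 7.73% of those with a mean of at least 200 counts), with a median of 0.19. All genes tested had 3.52% higher and 2.28% lower, and those at that level 4.55% and 3.19%. The split was 7 higher and 2 lower with library totals alone as the scaling, and 29 higher and 10 lower with DESeq2. This last count rested on single libraries: it was 64 without hemin nilotinib replicate 1 and 4 without mock nilotinib replicate 2, mock nilotinib replicate 3 or hemin nilotinib replicate 2. It was 13 without mock nilotinib replicate 1 and, with 6 higher and 7 lower, 13 without hemin nilotinib replicate 3. Comparisons that use the same group share its libraries: hemin DMSO enters both nilotinib with hemin and hemin without nilotinib.

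Long intergenic RNAs had values close to those of the antisense RNAs, and the classes were not tested against each other. Among long intergenic RNAs with a mean of at least 200 counts, 61.8% of 220 were higher and 15.5% lower in nilotinib with hemin, and their median was 1.02 on the log2 scale, and 15.9% were higher and 49.5% lower with hemin alone, with a median of -0.48. Of 10042 protein-coding genes at that level, 32.8% were higher and 36.4% lower in nilotinib with hemin, with a median of -0.06. Scaling by library totals alone moved the median of all genes tested from 0.02 to 0.20 in nilotinib with hemin and from -0.05 to -0.29 in hemin without nilotinib. Relative to that median, the antisense RNAs stood 1.0 higher with TMM scaling and 1.01 higher with library totals in nilotinib with hemin, and 0.48 lower with either scaling in hemin without nilotinib.

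**Figure D2:**
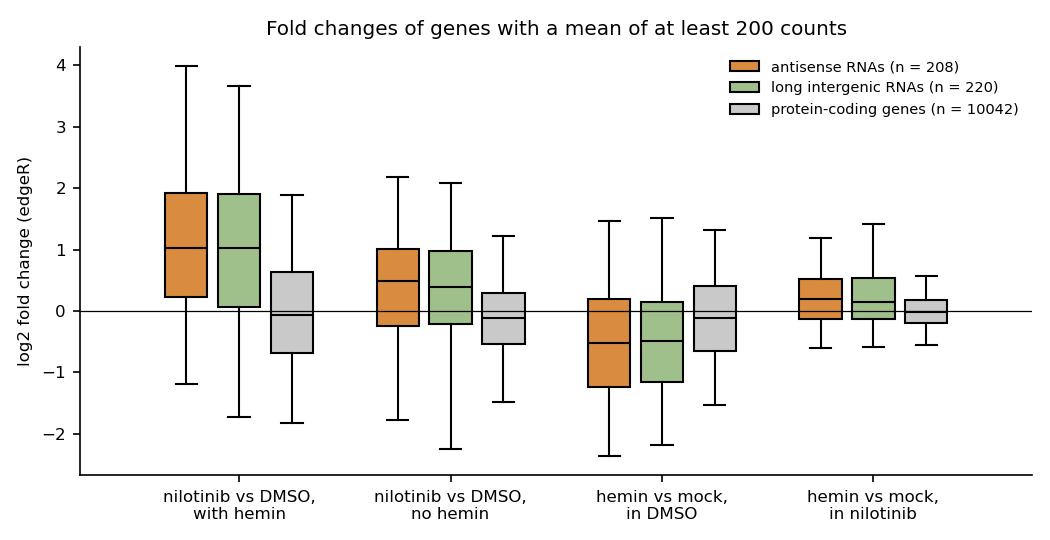
Log2 fold changes (y axis) in 4 comparisons (x axis) for the 208 antisense RNAs, 220 long intergenic RNAs and 10042 protein-coding genes with a mean of at least 200 counts. Boxes span the quartiles with the median as a line, and whiskers reach the percentiles 5 and 95. Both noncoding classes lie above the coding genes for nilotinib with hemin, at medians of 1.02 against -0.06, and below them for hemin in DMSO, at -0.52 and -0.48 against -0.11.

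The antisense RNAs were also described by the exon bases they share with other genes. Of the 54 with no exon base in another gene, 26 were higher and 9 lower in nilotinib with hemin (48.1% and 16.7%). Among genes with a mean of at least 200 counts these shares were 34.8% and 34.9%. The median of the 54 was 0.57 on the log2 scale. The 102 that shared under 20% of their exon bases had 71 higher (69.6%), 9 lower (8.82%) and a median of 1.06. The 52 that shared 20% or more had 37 higher (71.2%), 3 lower (5.77%) and a median of 1.18. In nilotinib without hemin, the 54 had 21 higher and 16 lower (38.9% and 29.6%, beside 21.6% and 29.1% of genes at that level). Their median was 0.03, beside 0.55 and 0.48 for the 102 and the 52. The medians, in the same order, were -0.35, -0.43 and -0.58 for hemin without nilotinib and 0.35, 0.17 and 0.13 for hemin with nilotinib. By arrangement, the median for nilotinib with hemin was 1.37 inside coding genes, 1.13 tail to tail, 1.07 head to head, 0.69 without an overlapping coding gene and 0.27 for those that span one. These subsets were not tested against each other.

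The antisense RNAs raised most by nilotinib lie at genes of varied function. AL031848.1 (ENSG00000231868, chr1:6443034-6447006, minus strand, 3 exon blocks inside ESPN, the gene of the actin-bundling protein espin) had 0.31, 0.53 and 0.65 CPM in mock DMSO, 0, 0 and 0.03 in hemin DMSO, 20.8, 18.8 and 25.5 in mock nilotinib and 20, 18 and 30.9 in hemin nilotinib. It was thus near absent in all 6 DMSO libraries. With at most 1 count in any hemin DMSO library, its level in hemin nilotinib was at least 261-fold higher, computed at 3 counts per library. In mock nilotinib it was 5.46 ± 0.31 higher than in mock DMSO on the log2 scale (SE, n = 3 per group). ESPN rose too, from 2.08 ± 0.56 CPM in hemin DMSO to 1181 ± 100 in hemin nilotinib (SD, n = 3), and 5.1% of the exon bases of AL031848.1 overlap exons of the other strand.

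AL137789.2 (ENSG00000285239, chr1:207709024-207711508, minus strand), inside the complement receptor-like gene CR1L, had 0.81 to 1.46 CPM in mock DMSO, 0 to 0.10 in hemin DMSO, 10.4 to 12.7 in mock nilotinib and 7.11 to 11.6 in hemin nilotinib. Its log2 fold change for nilotinib with hemin was 7.45 ± 0.47 (SE) by edgeR and became 8.89 without hemin DMSO replicate 3, while CR1L itself changed by 3.17 ± 0.14. AC022098.2 (ENSG00000267670, chr19:14030855-14031557, minus strand), tail to tail with the gene of the neuropeptide relaxin 3 (RLN3), was at 0.06 to 0.28 CPM in the 6 DMSO libraries, at 30.6 to 42.9 in mock nilotinib and at 17.8 to 26.0 in hemin nilotinib. This gene and RLN3 moved as one, by 7.15 ± 0.36 and 7.19 ± 0.32 with hemin and by 7.52 ± 0.34 and 7.36 ± 0.30 without it (log2, SE). Exons of the opposite strand cover 36.3% of the exon bases of AC022098.2 and 34.4% of those of AL137789.2.

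AC003102.1 (ENSG00000260793, chr17:44221401-44223710, plus strand) starts head to head with UBTF, which encodes a transcription factor of RNA polymerase I. It had 2.23, 2.48 and 2.77 CPM in mock DMSO and 0.77, 0.67 and 0.99 in hemin DMSO. With nilotinib it had 88.3, 78.5 and 104 CPM in the mock libraries and 57.7, 60.1 and 96.5 in the hemin libraries. All 6 nilotinib libraries lay far above every DMSO library. The log2 fold change was 6.45 ± 0.25 with hemin and 5.17 ± 0.22 without it (SE), against 2.89 ± 0.14 and 1.5 ± 0.13 for UBTF. Its ratio to UBTF therefore rose, by 3.47 ± 0.24 and 3.63 ± 0.24 on the log2 scale (SE; adjusted p = 3.5e-10 and 5.7e-10, limma over 1411 antisense-coding pairs).

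AL009031.1 (ENSG00000282024, chr6:16259101-16264553, minus strand) shares no exon base with another gene and lies inside GMPR, whose enzyme turns GMP into IMP. Its level was 37.4, 36.1 and 28.9 CPM in mock DMSO, 3.65, 3.03 and 5.22 in hemin DMSO, 145, 140 and 196 in mock nilotinib and 96.4, 76.6 and 121 in hemin nilotinib. The 4 groups did not overlap. Hemin lowered it by -3.09 ± 0.22 without nilotinib, and nilotinib raised it by 2.23 ± 0.21 without hemin and 4.62 ± 0.24 with it (log2, SE). GMPR fell with hemin alone as well, from 90.7 ± 10.2 to 24.1 ± 7.0 CPM (SD), but had a log2 fold change of -0.05 ± 0.17 for nilotinib without hemin (adjusted p = 0.84 by edgeR). The ratio of AL009031.1 to GMPR rose with nilotinib by 2.27 ± 0.30 without hemin (adjusted p = 1.2e-05, limma).

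The most abundant of the set per kb was AC016629.2 (ENSG00000269600), at 31.6 ± 3.1 CPM in mock DMSO, 9.70 ± 2.59 in hemin DMSO, 110 ± 15 in mock nilotinib and 151 ± 32 in hemin nilotinib (SD, n = 3). Its log2 fold change for nilotinib with hemin was 3.96 ± 0.21. C1RL-AS1, head to head with the complement protease gene C1RL, rose from 2.20 ± 0.36 to 47.3 ± 13.3 CPM with hemin and from 10.2 ± 0.2 to 61.0 ± 10 without it, while C1RL changed by 1.46 ± 0.15 and -0.17 ± 0.14 on the log2 scale (SE). ISPD-AS1, inside the gene of a dystroglycan-glycosylation enzyme, rose from 2.01 ± 0.57 to 32.0 ± 3.8 CPM with hemin and from 5.01 ± 0.46 to 33.2 ± 7.4 without it. AC006547.1, tail to tail with TANGO2, rose with its partner, by 2.92 ± 0.27 and 2.95 ± 0.20.

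AC104129.1 differed widely between the settings with and without hemin. This RNA (ENSG00000176349, chr7:1838586-1849931, plus strand) shares no exon base with another gene and lies inside MAD1L1, a gene of the spindle checkpoint. Its level was 8.22, 12.8 and 12 CPM in mock DMSO, 0.86, 0.16 and 0.84 in hemin DMSO, 6.47, 5.95 and 6.54 in mock nilotinib and 8.11, 11.5 and 13.0 in hemin nilotinib. The 3 hemin DMSO libraries were far below the rest, and mock nilotinib lay between them and the remaining groups, a fall of 0.80 ± 0.31 from mock DMSO (log2, SE; adjusted p = 0.046 by edgeR) that was lost without any 1 of 5 libraries. Hemin lowered it by -4.12 ± 0.37 without nilotinib, and the interaction was 4.90 ± 0.48 (log2, SE; adjusted p = 6.1e-06 by edgeR). MAD1L1 had group means of 56.8 to 72.6 CPM and passed the test in none of the 5 comparisons.

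**Figure D3:**
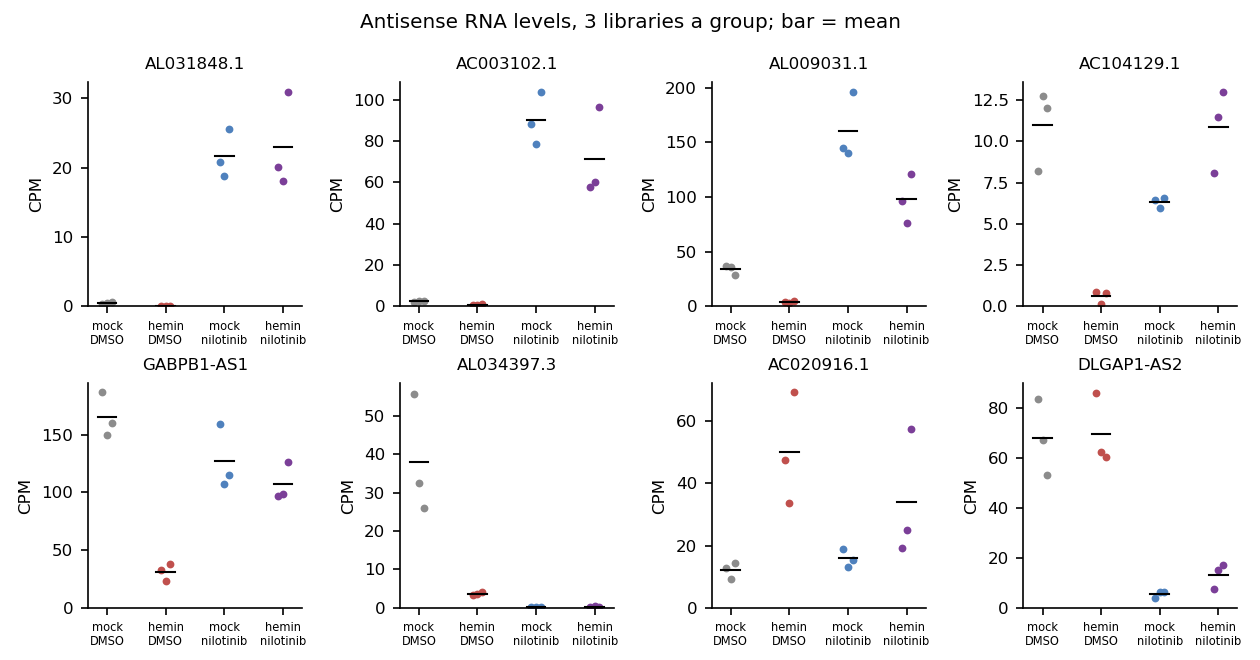
Levels of 8 antisense RNAs in CPM (y axes, from 0) in the 3 libraries of each of the 4 groups, with the group mean as a bar. AL031848.1, AC003102.1 and AL009031.1 are high in the nilotinib groups, AC104129.1 and GABPB1-AS1 are lowest in hemin DMSO, AL034397.3 and DLGAP1-AS2 are low in both nilotinib groups, and AC020916.1 is highest in hemin DMSO.

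Several of the antisense RNAs carry microRNAs, short RNAs that pair with messenger RNAs through their seed, bases 2 to 8. On the same strand, 6 of the 208 hold 10 microRNA genes. Mature sequences from RefSeq (GRCh38.p14) are shown for those whose hosts are known in blood cells, with the seed in capitals, because the host is the transcript that was counted and the mature forms were not measured.
miR-223-3p: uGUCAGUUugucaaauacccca
miR-142-3p: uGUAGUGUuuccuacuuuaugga
miR-142-5p: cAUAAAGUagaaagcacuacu
miR-23a-3p: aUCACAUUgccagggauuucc
miR-27a-3p: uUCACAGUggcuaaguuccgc
miR-24-3p: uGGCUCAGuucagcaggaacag
miR-15a-5p: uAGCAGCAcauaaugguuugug
miR-16-5p: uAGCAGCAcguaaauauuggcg
The sequences of miR-15a-5p and miR-16-5p share the seed AGCAGCA, and the others each have their own.

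The host of miR-223, a microRNA of the myeloid line, nearly disappeared with nilotinib. AL034397.3 (now MIR223HG; ENSG00000274536, chrX:66015461-66020422, plus strand) had 55.7, 32.5 and 26.0 CPM in mock DMSO, 3.28, 3.67 and 4.26 in hemin DMSO, 0.18, 0.20 and 0.20 in mock nilotinib and 0.14, 0.47 and 0.28 in hemin nilotinib. The groups fell in that order without overlap, save between both nilotinib groups. Nilotinib lowered it by -7.59 ± 0.38 without hemin and -3.64 ± 0.36 with it (log2, SE), and hemin alone by -3.35 ± 0.28. It reached the limit on mean counts in mock DMSO alone, so these falls are a description. AL034397.2 (ENSG00000237311, chrX:65999751-66001071, plus strand), which lies before it on the same strand, went from 95.3 ± 2.0 CPM in mock DMSO to 17.6 ± 4.0 in hemin DMSO and 0.87 ± 0.21 in mock nilotinib (SD). In the same libraries the 8 myeloid markers summed to 105 to 118 CPM in mock DMSO and 18.6 to 21.2 in mock nilotinib, and whether their fall bears on these RNAs was not tested.

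Other hosts were higher with hemin or nilotinib. AC020916.1 (now MIR23AHG; ENSG00000267519, chr19:13823880-13842928, minus strand), which carries miR-23a, miR-27a and miR-24-2, had 12.6, 9.33 and 14.5 CPM in mock DMSO and 47.5, 33.7 and 69.1 in hemin DMSO. With nilotinib the levels were 19.0, 13.1 and 15.5 CPM without hemin and 19.3, 25.1 and 57.2 with it. The hemin libraries were above the mock libraries without overlap in both settings. Hemin raised it by 2.04 ± 0.34 in DMSO (log2, SE; adjusted p = 1.0e-04 by edgeR), while in nilotinib the value of 1.10 ± 0.33 did not pass the test (adjusted p = 0.062, and 0.027 with the replicate number as a block). AC004687.1 (the host of miR-142; ENSG00000265206), singled out after its values were seen, had 7.59 ± 1.93 CPM in mock DMSO, 13.9 ± 4.3 in hemin DMSO, 14.4 ± 4.4 in mock nilotinib and 25.8 ± 14.2 in hemin nilotinib (SD). It was 0.87 ± 0.33 higher with hemin alone and 0.93 ± 0.33 higher with nilotinib alone (log2, SE; adjusted p = 0.036 and 0.034 by edgeR).

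DLEU2 (ENSG00000231607, chr13:49982552-50125720, minus strand), which spans TRIM13 and carries miR-15a and miR-16-1, had 3.50 ± 0.89, 5.99 ± 1.01, 5.77 ± 1.06 and 8.47 ± 0.29 CPM in mock DMSO, hemin DMSO, mock nilotinib and hemin nilotinib (SD). It was called higher with hemin alone (0.77 ± 0.23) and with nilotinib alone (0.72 ± 0.23; log2, SE), and both calls were lost without mock DMSO replicate 2, at adjusted p = 0.061 and 0.10 by edgeR. The call for hemin alone was also lost with library totals alone, at 0.53 (adjusted p = 0.079). The call for nilotinib alone was also lost without mock DMSO replicate 3 or mock nilotinib replicate 1 or 2, at adjusted p of 0.051 to 0.084. ENTPD1-AS1, the host of miR-3157, rose with nilotinib by 1.02 ± 0.18 with hemin and 0.65 ± 0.17 without it. GABPB1-AS1, the host of miR-4712, is described with its coding gene.

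Antisense RNAs and the coding genes they overlap often changed unequally. Among the 162 pairs with both genes tested, the ratio of antisense to coding changed in nilotinib with hemin for 110, upward in 87 and downward in 23 (67.9%, beside 48.8% of the 1411 pairs in the whole table; limma on log2 ratios, adjusted p under 0.05). It changed for 60 in nilotinib without hemin, 44 of them upward (37.0%, beside 20.5%), for 92 in hemin without nilotinib, 60 of them downward (56.8%, beside 36.5%), and for 7 in hemin with nilotinib (4.32%, beside 2.69%). The upward lean was also in the pairs of the whole table: the median ratio change in nilotinib with hemin was 0.77 for the 162 pairs and 0.60 for the 1411, and without hemin it was 0.18 and 0.35 (log2). The count of 7 became 26 without hemin nilotinib replicate 1, 6 without mock nilotinib replicate 1, and 2 without mock nilotinib replicate 2 or 3 or hemin nilotinib replicate 2 or 3. In nilotinib with hemin, both genes rose in 60 pairs and both fell in 10, the antisense RNA rose while the coding gene fell in 18 and the reverse held in 3, and in 31 the antisense RNA alone passed the test. Among the 1411 pairs, shares were computed neither for these directions nor for upward and downward ratios. Whether these counts are particular to the 162 pairs therefore cannot be told. Across the 162 pairs the log2 fold changes had a Pearson r of 0.59, which is across pairs that share their libraries and are not replicates.

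The likeness of the changes by arrangement differed between comparisons. In nilotinib with hemin, r was 0.79 for the 42 pairs inside, 0.65 for the 44 tail to tail, 0.40 for the 61 head to head and 0.02 for the 15 that span. In nilotinib without hemin these were 0.75, 0.77, 0.67 and 0.49, and in hemin without nilotinib 0.50, 0.37, 0.26 and 0.51. Pairs that share 20% or more of exon bases had, in nilotinib with hemin, an r of 0.70 (37 pairs) and those that share none 0.53 (38 pairs). In these 38 pairs without shared exon bases, 5 antisense RNAs rose while the coding gene fell, and 9 pairs rose together.

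**Figure D4:**
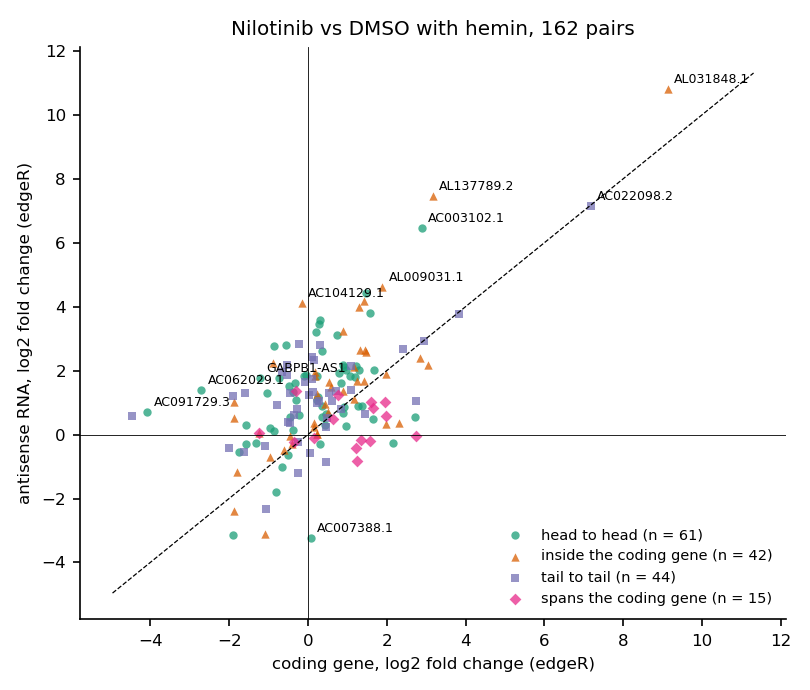
Log2 fold change of the coding gene (x axis) and of the antisense RNA (y axis) for nilotinib against DMSO with hemin, in 162 pairs, with symbols for the arrangement and a dashed line where both are equal. Most pairs lie above the line, 18 with a raised antisense RNA and a lowered coding gene, such as AC091729.3 and AC062029.1, and AC007388.1 lies far below it.

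Several head-to-head pairs with nearby starts changed unequally. The promoter windows below, 250 bases before to 50 after the coding gene's RefSeq start (GRCh38.p14), are shown because RefSeq places the starts of both RNAs of each pair in or beside them; capitals mark the bases between the RefSeq starts of the coding gene and of the antisense RNA, which run in opposite directions.
ZFAND2A, chr7:1160147-1160446, minus strand: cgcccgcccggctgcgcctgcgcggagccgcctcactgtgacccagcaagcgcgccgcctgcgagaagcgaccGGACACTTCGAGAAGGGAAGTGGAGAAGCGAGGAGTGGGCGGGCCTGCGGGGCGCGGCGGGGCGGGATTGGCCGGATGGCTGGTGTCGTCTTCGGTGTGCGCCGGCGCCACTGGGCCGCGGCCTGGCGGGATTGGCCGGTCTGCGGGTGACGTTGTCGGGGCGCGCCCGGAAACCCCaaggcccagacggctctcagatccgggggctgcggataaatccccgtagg
EIF2AK3, chr2:88627415-88627714, minus strand: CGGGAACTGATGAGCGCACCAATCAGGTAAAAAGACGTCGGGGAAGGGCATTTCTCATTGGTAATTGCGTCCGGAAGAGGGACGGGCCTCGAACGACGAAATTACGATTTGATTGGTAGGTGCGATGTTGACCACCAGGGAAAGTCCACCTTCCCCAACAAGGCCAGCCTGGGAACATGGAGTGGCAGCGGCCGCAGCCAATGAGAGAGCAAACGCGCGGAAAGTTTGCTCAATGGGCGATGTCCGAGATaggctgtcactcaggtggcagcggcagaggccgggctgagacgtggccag
MAP4K3, chr2:39437236-39437535, minus strand: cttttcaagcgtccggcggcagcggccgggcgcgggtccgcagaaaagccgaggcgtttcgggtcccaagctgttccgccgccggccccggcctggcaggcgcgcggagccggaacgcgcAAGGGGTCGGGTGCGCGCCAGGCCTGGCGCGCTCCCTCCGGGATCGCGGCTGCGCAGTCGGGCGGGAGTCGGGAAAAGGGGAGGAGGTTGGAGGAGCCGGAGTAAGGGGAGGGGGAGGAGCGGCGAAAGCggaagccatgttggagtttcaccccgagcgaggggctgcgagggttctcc
The RefSeq starts lie 178 bases apart at ZFAND2A, 365 at EIF2AK3, where the window holds 250 of the bases between them, and 131 at MAP4K3. The gene bodies of the count table start elsewhere and overlap the coding gene by 386 bases at ZFAND2A, 38 at EIF2AK3 and 676 at MAP4K3. None of these windows holds the letters AGATAA, a site form of GATA factors, or a heat shock element, searched as 3 alternating GAA and TTC units with 2 free bases between units, on either strand. In all 27305 RefSeq promoters, AGATAA is in 10.5% and the heat shock element in 0.487%. Promoters matched 115 of the 208 antisense RNAs by symbol, of which 5 hold AGATAA and 2 the heat shock element.

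ZFAND2A, a stress-induced gene of the proteasome pathway, was induced by hemin while its antisense RNA was not. ZFAND2A had 6.35 to 7.94 CPM in mock DMSO, 1718, 1155 and 1282 in hemin DMSO, 6.60 to 7.64 in mock nilotinib and 19.5, 74.9 and 152 in hemin nilotinib. AC091729.3 (now ZFAND2A-DT; ENSG00000229043, chr7:1160374-1165267, plus strand) had 9.05, 8.59 and 7.17 CPM, then 7.97, 9.38 and 8.90, then 11.4, 12.6 and 11.9, and 12.6, 14.5 and 16 in the same groups. Hemin without nilotinib changed ZFAND2A by 7.62 ± 0.56 and AC091729.3 by 0.08 ± 0.16 (log2, SE; adjusted p = 0.70 for the latter), and the ratio fell by 7.52 ± 0.41 (adjusted p = 1.7e-11, limma). Nilotinib with hemin lowered ZFAND2A by -4.07 ± 0.47 and raised AC091729.3 by 0.71 ± 0.16 (adjusted p = 0.0012 by edgeR).

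EIF2AK3, the gene of the endoplasmic reticulum stress kinase PERK, was likewise highest in hemin DMSO. It had 17.8 ± 0.3 CPM in mock DMSO, 114 ± 12 in hemin DMSO, 13.0 ± 1.8 in mock nilotinib and 17.5 ± 4.0 in hemin nilotinib (SD). AC062029.1 (now EIF2AK3-DT; ENSG00000234028, chr2:88627539-88631821, plus strand) had 5.25, 5.08 and 4.56 CPM in mock DMSO, 5.67, 3.83 and 5.38 in hemin DMSO, 10.1, 12.8 and 15.9 in mock nilotinib and 6.09, 16.4 and 16.7 in hemin nilotinib. Every nilotinib library of the antisense RNA was above every DMSO library, while the coding gene was high in hemin DMSO only. Nilotinib raised AC062029.1 by 1.38 ± 0.30 without hemin and 1.40 ± 0.30 with it, and lowered EIF2AK3 by -0.46 ± 0.16 and -2.70 ± 0.17 (log2, SE). The exons of AC062029.1 share 0.89% of their bases with EIF2AK3.

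GABPB1-AS1 went opposite to GABPB1, which encodes a subunit of the ETS-family factor GABP, under hemin. Per library, GABPB1-AS1 (ENSG00000244879, chr15:50354959-50372202, plus strand) had 187, 150 and 160 CPM in mock DMSO, 33.2, 23.1 and 38.2 in hemin DMSO, 160, 107 and 115 in mock nilotinib and 96.8, 98.8 and 126 in hemin nilotinib. GABPB1 had 25.8 to 28.0 CPM in mock DMSO, 55.7 to 72.2 in hemin DMSO, 22.8 to 24.3 in mock nilotinib and 24.4 to 29.5 in hemin nilotinib. Hemin alone thus lowered the antisense RNA, by -2.39 ± 0.20, and raised the coding gene, by 1.19 ± 0.13 (log2, SE), and neither passed the test for hemin in nilotinib (-0.25 ± 0.19 and 0.19 ± 0.13). Exons of the opposite strand cover 6.0% of the exon bases of GABPB1-AS1.

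At MAP4K3 it was the antisense RNA that was lower with nilotinib. AC007388.1 (now MAP4K3-DT; ENSG00000231312, chr2:39436637-39665343, plus strand) had 11.6, 9.33 and 9.36 CPM in mock DMSO and 11, 16.7 and 12.8 in hemin DMSO, and 1.65, 1.60 and 1.59 in mock nilotinib and 0.92, 1.73 and 1.61 in hemin nilotinib. All DMSO libraries were above all nilotinib libraries. Nilotinib lowered it by -2.64 ± 0.25 without hemin and -3.24 ± 0.25 with it (log2, SE). AC007388.1 reached the limit on mean counts in the DMSO groups alone, so these falls are a description. MAP4K3, a kinase gene of nutrient signalling, had group means of 24.8 to 26.9 CPM and log2 fold changes of 0.01 to 0.10, none past the test.

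Ratios also changed where the coding gene moved and its antisense RNA passed no test or moved less. ZBED5-AS1 had group means of 5.98 to 8.29 CPM and passed edgeR's test in none of the 5 comparisons (it passed for nilotinib without hemin and for the interaction with DESeq2 and with the replicate block, and for 1 of these in the 6 libraries alone or without hemin DMSO replicate 1), while ZBED5, head to head with it, fell with hemin from 35.9 ± 1.8 to 11.9 ± 2.4 CPM and was at 52.0 ± 5.1 and 53.3 ± 17.8 in the nilotinib groups (SD). GP6, the platelet collagen receptor gene, rose by 2.75 ± 0.19 in nilotinib with hemin, and AC011476.3, which spans it, had -0.04 ± 0.34 (log2, SE; adjusted p = 0.93 by edgeR). FGD5-AS1, at 144 ± 14 to 216 ± 26 CPM among the most abundant of the set, rose by 0.58 ± 0.13 in nilotinib with hemin. Its coding gene FGD5 was nearly absent, at 0.37 to 1.63 CPM in hemin DMSO and at most 0.12 CPM elsewhere, so their ratio rests on few reads.

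A smaller group was lowered by nilotinib. TLR8-AS1 (ENSG00000233338, chrX:12902817-12908333, minus strand), head to head with the gene of the RNA sensor TLR8, had 20.7, 18.3 and 20.2 CPM in mock DMSO, 3.34, 2.78 and 3.63 in hemin DMSO, and 0.17 to 0.56 in the 6 nilotinib libraries. It fell with nilotinib by 5.54 ± 0.31 without hemin and by 3.14 ± 0.30 with it (log2, SE), and TLR8, at 1.07 to 2.27 CPM in mock DMSO and 0 to 0.30 with nilotinib, fell too. DLGAP1-AS2 (ENSG00000262001, chr18:3603000-3608336, plus strand) had 83.8, 67.3 and 53.2 CPM in mock DMSO and 85.9, 62.5 and 60.6 in hemin DMSO, against 3.98, 6.48 and 6.40 in mock nilotinib and 7.56, 15.2 and 17.3 in hemin nilotinib. Hemin gave 0.03 ± 0.25 in DMSO (adjusted p = 0.92 by edgeR) and raised it in nilotinib (1.26 ± 0.27; adjusted p = 0.016 by edgeR), a call lost without any 1 of 4 libraries (adjusted p of 0.053 to 0.073 without mock nilotinib replicate 1, 2 or 3 or hemin nilotinib replicate 2).

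Another group rose with hemin. AC121761.1 (ENSG00000257497, inside GLIPR1) had 2.21, 2.22 and 3.02 CPM in mock DMSO, 20.3, 17.2 and 19.1 in hemin DMSO, 0.96, 0.88 and 0.95 in mock nilotinib and 0.98, 2.61 and 2.92 in hemin nilotinib. It was thus high in hemin DMSO alone, by 2.92 ± 0.30 over mock DMSO (log2, SE). AL360270.1, tail to tail with LRIF1, rose with hemin from 2.93 ± 0.25 to 21.6 ± 3.1 CPM in DMSO and from 1.43 ± 0.09 to 4.27 ± 2.0 in nilotinib, and LRIF1 from 53.6 ± 1.7 to 182 ± 21 and from 53.7 ± 2.7 to 87.2 ± 20.5 (SD). The rise of LRIF1 in DMSO passed edgeR's test. AC121761.1 and AL360270.1 reached the limit on mean counts in hemin DMSO alone, so their rises there are a description. AL109615.3 rose with hemin in both settings too, by 1.46 ± 0.33 in DMSO and 3.38 ± 0.44 in nilotinib, from means of 7.08 and 0.28 CPM. TDRG1 rose with hemin in DMSO by 2.33 ± 0.48, and its promoter is among the 2 with the heat shock element.

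AP001972.4 (ENSG00000255395, chr11:75099172-75140148, minus strand) was the one most raised by hemin after nilotinib. Head to head with the organic anion transporter gene SLCO2B1, it had 3.09, 2.93 and 2.73 CPM in mock DMSO, 14, 6.76 and 10.1 in hemin DMSO, 1.01, 0.73 and 0.55 in mock nilotinib and 8.02, 19.1 and 20.1 in hemin nilotinib. The hemin groups did not overlap their mock groups, and mock nilotinib was the lowest. Hemin raised it by 1.81 ± 0.32 in DMSO and by 4.35 ± 0.38 in nilotinib (log2, SE), and SLCO2B1 changed by 0.04 ± 0.37 and 2.61 ± 0.40. AP001972.4 reached the limit on mean counts in the hemin groups alone, so its rises are a description.

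Of 37 antisense RNAs with a known name that had been listed, 12 were among the 208. KCNQ1OT1, which silences imprinted neighbours from inside KCNQ1, had 59.6 to 76.8 CPM in mock DMSO, 151 to 305 in hemin DMSO, 116 to 170 in mock nilotinib and 94.8, 317 and 597 in hemin nilotinib. It rose with hemin in DMSO (1.87 ± 0.43; adjusted p = 0.0017 by edgeR), and hemin in nilotinib gave 1.31 ± 0.42 (adjusted p = 0.079, and 1.9e-04 without hemin nilotinib replicate 1). ZFAS1, a host of small nucleolar RNAs, stayed between group means of 25.6 and 34.1 CPM, and its log2 fold change of -0.41 ± 0.16 in nilotinib with hemin was lost under 7 of the alternatives. Of the 208, 10 passed the test in none of the 5 comparisons, among them TMEM132D-AS1, PIK3CD-AS2, OTUD6B-AS1, FOXD3-AS1 and MAP3K14-AS1. The share of all genes that passed in none was not computed.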

How the data were processed

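The authors deposited a table of raw counts of reads per gene for 12 libraries of K562 RNA (150-base paired-end reads), with biotype, position and exon length per gene; the labels give the build GRCh38.p12 and DESeq2, and the aligner, counter and strand setting are not given in the sources used here. The deposited FPKM were not used. Positions of all 208 antisense RNAs matched GENCODE 29, from which exon overlaps were computed. Counts were fitted in R 4.3.3 with edgeR 4.0.16: filterByExpr (minimum count 10, total 15), TMM scaling, quasi-likelihood with 1 mean per group over all 12 libraries, two-sided tests, and Benjamini-Hochberg adjustment over the 20821 genes tested. CPM use TMM-scaled totals. Ratios to the coding gene of longest overlap on the other strand used limma 3.58.1 on log2 CPM (prior count 2) over 1411 pairs. Replicates are called biological by the labels. An exact permutation test of 3 against 3 cannot go below p = 0.1 and was not used.

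Members, gene lists and the rule for named genes were chosen with earlier results of these data known. The rule took the 10 highest per kb, the 5 largest rises and falls without overlap in each comparison, the 4 largest ratio changes each way, genes at the limit of 200, and listed known names; the miR-142 host was added after its values were seen. Alternatives were DESeq2 1.42.0, RLE factors, library totals alone, other filters and prior counts, the 6 libraries of a comparison, a replicate block and each library left out. Same-numbered libraries deviated together weakly between mock DMSO and hemin DMSO (correlations of 0.0849 to 0.104), mock DMSO and mock nilotinib (0.0869 to 0.0989), and hemin DMSO and mock nilotinib (0.0793 to 0.117). Only between mock nilotinib and hemin nilotinib were all above 0.1 (0.199 to 0.263), so the numbers in the labels were taken to pair those. The main fit held no term for this pairing, which enters only through the replicate block among the alternatives. The fit was tested on simulated data. Figures were made in Python 3.11.15 with matplotlib 3.10.9.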

Additional observations from a re-analysis of the deposited data

Results flagged for a closer look

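The effect of nilotinib differed between cells with and without hemin for 94 of the 208 antisense RNAs, by the interaction term of edgeR's quasi-likelihood test at an adjusted p under 0.05, beside 30.1% of all genes tested. The values that follow are that term on the log2 scale, the effect with hemin minus the effect without it, for the named antisense RNAs that passed.

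A positive term can stand for a larger rise with hemin or for a smaller fall. Among the named genes, high terms were those of AL031848.1 5.35, AC104129.1 4.90, AL137789.2 4.03, AL034397.3 3.96, AC092384.2 3.21, AL034397.2 3.06, AP001972.4 2.54, TLR8-AS1 2.40 and AL009031.1 2.39. With 0 to 1 counts in the hemin DMSO libraries, the term of AL031848.1 is no bound and ranged from 4.92 to 7.37 over the alternatives, and that of AL137789.2, with 0 to 4 counts there, from 3.53 to 5.46. Among the others, AL034397.3, AL034397.2 and TLR8-AS1 fell with nilotinib in both settings, by less with hemin, where hemin DMSO was already lower than mock DMSO, and AP001972.4 fell without hemin and did not pass the test with it. Lower terms were AC016629.2 2.16, DHRS4-AS1 2.15, GABPB1-AS1 2.14, AL109615.3 1.92, C1RL-AS1 1.83, AL365181.3 1.68, VPS9D1-AS1 1.47, AL591895.1 1.45 and TMPO-AS1 1.41. The smallest positive terms were AC003102.1 1.27, ISPD-AS1 1.27, PSMA3-AS1 1.27, DLGAP1-AS2 1.22, MCM3AP-AS1 1.20, BX293535.1 1.17, SLC16A1-AS1 1.11, AF131216.3 1.03 and AC099850.3 0.73. The term of AC099850.3, at the gene PRR11, lost its call without any 1 of 7 libraries, that of BX293535.1 under 7 alternatives and that of DLGAP1-AS2 under 3.

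A negative term was found for SH3BP5-AS1 -0.93, AC093157.1 -0.93, AL031714.1 -1.06, AL360270.1 -1.30 and AC121761.1 -1.70. Of these calls, SH3BP5-AS1 was lost under 7 alternatives, AC093157.1 under 10, AL031714.1 under 10 and AL360270.1 under 4, each of them with library totals alone among these (adjusted p of 0.065 to 0.12), and AC121761.1 under 0. Both AC121761.1 and AL360270.1 were high in hemin DMSO and fell with nilotinib in both settings, by more with hemin.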

How the results depend on the processing

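Among the counts over the 208 antisense RNAs and their 162 pairs, those of hemin with nilotinib changed with the processing. Its 21 called antisense RNAs became 39 with DESeq2 (29 higher, 10 lower), 9 with library totals alone (7 higher, 2 lower), 46 with all genes of at least 1 count and 2 in the 6 libraries alone, and 4 to 64 with 1 library left out; its 7 changed ratios became 3 with a prior count of 0.5 and 2 to 26 with 1 library left out. The cause was not tested, apart from the fewer libraries in some of these fits. With 1 library left out, called antisense RNAs ranged from 145 to 163 for nilotinib with hemin, 104 to 126 for nilotinib without hemin, 120 to 129 for hemin without nilotinib and 83 to 114 for the interaction, and changed ratios from 104 to 116, 46 to 52 and 76 to 90 in the first 3 comparisons. Under the other alternatives each of these counts stayed within 1.5 times its value.

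With the replicate number as a block, the called antisense RNAs were 161, 141, 140, 26 and 101 for nilotinib in the presence and in the absence of hemin, for hemin in DMSO and in nilotinib, and for the interaction, and changed ratios were 113, 67, 98 and 8 in the first 4, so the pairing moved no count by over 1.5 times. The block took no call from a named antisense RNA and gave 11, of which 3 were for hemin with nilotinib (AC020916.1 at 0.98, TDRG1 at 1.71 and AL691432.2 at 0.72 on the log2 scale), 3 were for nilotinib with hemin, 2 for nilotinib without hemin and 3 for the interaction, ZBED5-AS1 among the last 2 kinds. Of 3883 fold changes of 56 named antisense RNAs under alternatives, 3605 kept their side of the threshold, 183 lost the call, 95 gained it and 0 calls reversed. A sign change of a value that passed under neither setting was not counted as reversed. Such values exist: AC011476.3 in nilotinib with hemin was -0.04 and ranged from -0.49 to 0.33. Few reads limit AL031848.1, AL137789.2, FGD5 and TLR8, and without strand no overlap of exons can be resolved.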
